A study of Mus musculus with 8 samples.

Results

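The 38 genes described here mark the cells that build and cover the blood vessels of the brain, and they were read on arrays of 4 hypothalamic nuclei. They were chosen by name, as genes of the endothelium with its barrier, of fenestrated vessels, of pericytes, of vascular smooth muscle, and of the leptomeninges. Every probe whose RefSeq accession belongs to these genes was taken, which gave 43 of 55681 probes, and 38 of the 20284 genes that could be named. The groups were 11 barrier genes, 12 general endothelial genes, 1 gene of fenestrated vessels, 4 pericyte genes, 4 smooth muscle genes, and 6 leptomeningeal genes. They differ in function and were chosen to mark cells that are a minor part of a block of hypothalamus. Not all are confined to these cells, since *Ptgds* is also made by oligodendrocytes. The RNA read was that of a whole nucleus. In such tissue, fewer cells of a type and less RNA per cell cannot be told apart.

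The study searched for genes that mark the dorsomedial hypothalamus (DMH), and for that purpose it profiled laser-microdissected tissue from the arcuate nucleus (Arc), the ventromedial hypothalamus (VMH), the DMH, and the lateral hypothalamus (LH). All groups were female C57BL/6 mice of 3 months, C57BL/6J in the methods, with no treatment or engineered allele named, and the methods give 2 animals. Each nucleus had 2 one-color Agilent arrays, 8 in all, called Arc1, Arc2, and so on by nucleus and replicate. Neither the labels nor the methods say which arrays share an animal, so p-values measure the spread between these arrays, and nuclei of the same animals may not be independent.

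The wall of a brain capillary is a sheet of endothelial cells joined by tight junctions, with efflux pumps and nutrient transporters in its membranes, and pericytes are wrapped around it. Arterioles carry contractile smooth muscle in place of pericytes. The base of the hypothalamus borders the median eminence, where capillaries are fenestrated and carry the diaphragm protein *Plvap*, and its ventral surface is covered by the leptomeninges, a layer of fibroblasts that makes collagens and small proteoglycans.

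Properties of the arrays also bear on these genes. Between 47.1% and 52.7% of the spots of an array were well above background, by the software's own mark, and a signal without the mark is a bound. LH1 had 364 spots marked as outliers, against 126 to 161 on the other arrays, and its correlation with LH2 over the probes tested was 0.938, where LH2 and DMH2 reached 0.954. Arc1 alone measured *Cga*, the common subunit of pituitary glycoprotein hormones, at a scaled signal of 1425, against 19.7 to 30.4 on the other 7 arrays, none of which was well above background. The nuclei carried their own markers. *Agrp*, a neuropeptide of the Arc, read 53020 and 47181 there and at most 581 elsewhere. *Nr5a1*, a nuclear receptor of the VMH, read 12163 and 11694 there and at most 688 elsewhere. *Prdm13* read 1661 and 1667 in the DMH and at most 140 elsewhere. *Hcrt*, the orexin precursor that marks the LH, read 105971 and 116750 there but also 55940 and 51283 in the DMH. All signals given here are processed intensities on a linear scale, divided by the 75th percentile of the array. A signal compares the same probe across arrays and says nothing of 1 gene against another.

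Of the 43 member probes, 27 were well above background on all 8 arrays and 3 on none. A probe was tested when some nucleus had it well above background on each of its 2 arrays, and 37 probes of 33 genes met this. The other 5 genes were dim. Both probes of *Ocln*, the tight junction protein occludin, stayed between 19.1 and 32.8 on every array. *Pecam1*, an adhesion molecule of all endothelium, was well above background on LH1 alone, at 79.3. The leptomeningeal genes *Lum*, *Ogn*, and *Slc22a6* are given with their group. The endothelium was otherwise well represented, since *Cldn5*, *Flt1*, *Egfl7*, *Tie1*, and *Esam* were well above background on every array.

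Of the 11 barrier probes tested, 9 had their highest mean signal in the LH. Among the endothelial genes *Flt1*, a receptor for vascular endothelial growth factor, *Egfl7*, a secreted factor of endothelium, and *Abcb1a*, the efflux pump P-glycoprotein, were higher in the LH than in the mean of the other 3 nuclei (limma, adjusted p of 0.0226, 0.0317, and 0.0449). These were 3 of the 37 member probes tested, and 3.89% of all 28894 probes tested were called in that direction. No member was called lower in the LH, against 2.45% of all probes. The calls for *Egfl7* and *Abcb1a* were lost whichever of the 8 arrays was left out, with adjusted p-values from 0.0595 to 0.0884 and from 0.0736 to 0.117.

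*Flt1* read 588 and 654 on the Arc arrays, 1016 and 952 on the VMH arrays, 949 and 1249 on the DMH arrays, and 1709 and 2710 on the LH arrays. Both LH arrays lay above the other 6 and both Arc arrays lay below them, while the VMH and DMH arrays overlapped. The LH exceeded the mean of the others by 1.30 ± 0.23 on the log2 scale (SE, n = 2 arrays per nucleus), and the Arc differed from the mean of the others by -1.09 ± 0.23 (limma, adjusted p = 0.0377). *Flt1* was also 1 of 2 members called in the F-test among the nuclei (adjusted p = 0.0347), a test that called 8.34% of all probes, and the call was kept in 1 of 8 cases when an array was left out. Of the 6 pairs of nuclei, only the Arc and the LH differed, with the Arc at 0.288 of the LH signal (limma, adjusted p = 0.0113). The order of the means was Arc, VMH, DMH, LH, and no neighbors in that order differed (limma, adjusted p of 0.241, 0.906, and 0.183). The difference of the LH from the others was lost without either Arc array, either VMH array, DMH1, or LH2 (adjusted p from 0.0134 to 0.0696 over the 8 arrays left out), and that of the Arc was kept only when an LH array was the one left out. The difference between the Arc and the LH was kept in 6 of 8 cases and lost without Arc1 and without Arc2.

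*Egfl7* read 13196 and 12423 in the Arc, 13553 and 12053 in the VMH, 14651 and 16599 in the DMH, and 23298 and 24628 in the LH. The LH arrays lay apart above all the others, and the Arc and VMH arrays overlapped. The LH exceeded the mean of the others by 0.81 ± 0.16 on the log2 scale, and it exceeded the Arc and the VMH in the pairs (limma, adjusted p of 0.0327 and 0.0452). *Abcb1a* read 450 and 470 in the Arc, 407 and 498 in the VMH, 515 and 616 in the DMH, and 854 and 819 in the LH. Again the LH arrays did not overlap with any other, and the Arc arrays fell between those of the VMH. The LH exceeded the mean of the others by 0.78 ± 0.17 on the log2 scale and exceeded the Arc in the pairs (limma, adjusted p = 0.0477). All of these pair differences were lost whichever array was left out. In the fit blocked on the replicate number the adjusted p was 0.0654 for *Egfl7* in the VMH against the LH, 0.057 for *Abcb1a* in the Arc against the LH, and 0.0544 for *Abcb1a* in the LH against the others. Without scaling of the arrays the calls for *Egfl7* and *Abcb1a* in the LH were lost as well (adjusted p of 0.166 and 0.26).

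**Figure D1:**
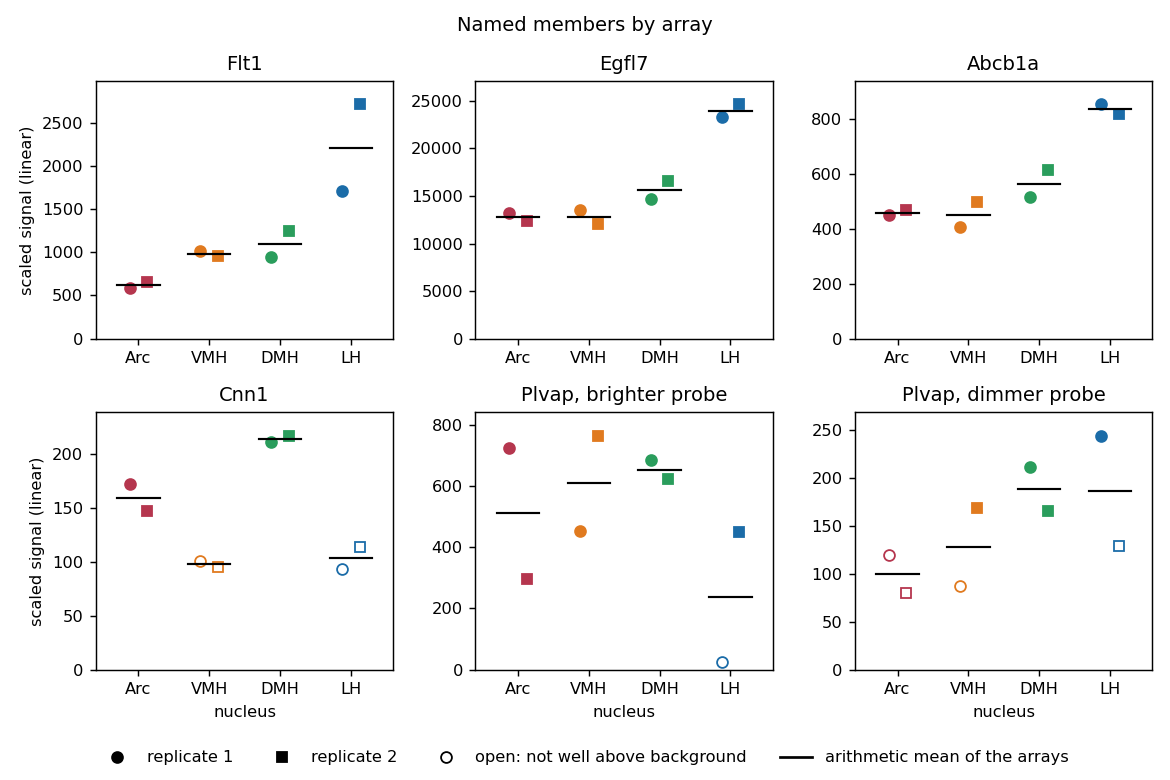
Scaled signal on a linear axis from 0 against the nucleus for the 5 members named by the rule, with 2 probes for *Plvap*. Circles are replicate 1, squares replicate 2, open marks are not well above background, and the line is the arithmetic mean of the 2 arrays. In the panels for *Flt1*, *Egfl7*, and *Abcb1a* both LH arrays lie above the other 6.

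To show where these genes start, their RefSeq promoters are printed from 250 bases before to 50 bases after the start (GRCm38.p6), on the strand of the gene. The table held 35 promoters for 27 of the 38 members, and no promoter for the other 11. A single motif was searched on both strands, GGAAGT with its reverse complement ACTTCC, a core bound by the ETS family of transcription factors that includes the endothelial factors *Erg* and *Fli1*. Matches are in capitals. Among these promoters *Flt1* has 1 start, *Egfl7* has 3 of which those with a match are shown, and *Abcb1a* has 1.
*Flt1* promoter, chr5:147725962-147726261, minus strand: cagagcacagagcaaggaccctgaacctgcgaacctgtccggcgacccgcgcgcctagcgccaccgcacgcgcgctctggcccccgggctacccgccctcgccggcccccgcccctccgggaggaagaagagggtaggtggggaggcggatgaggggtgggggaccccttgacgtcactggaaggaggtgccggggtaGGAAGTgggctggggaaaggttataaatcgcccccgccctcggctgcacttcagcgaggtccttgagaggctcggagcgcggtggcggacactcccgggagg
*Egfl7* promoter, chr2:26580833-26581132, plus strand: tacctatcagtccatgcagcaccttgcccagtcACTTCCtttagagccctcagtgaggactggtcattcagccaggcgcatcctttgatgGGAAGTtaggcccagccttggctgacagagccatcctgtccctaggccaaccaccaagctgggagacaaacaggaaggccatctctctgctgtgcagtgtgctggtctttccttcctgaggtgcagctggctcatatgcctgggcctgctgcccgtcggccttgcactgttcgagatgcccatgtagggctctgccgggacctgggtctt
*Egfl7* promoter, chr2:26583615-26583914, plus strand: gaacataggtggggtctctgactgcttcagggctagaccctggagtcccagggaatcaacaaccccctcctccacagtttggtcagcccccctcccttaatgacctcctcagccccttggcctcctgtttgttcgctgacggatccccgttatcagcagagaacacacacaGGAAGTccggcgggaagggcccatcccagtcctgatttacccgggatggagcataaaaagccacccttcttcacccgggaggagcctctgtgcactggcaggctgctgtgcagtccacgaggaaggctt
*Abcb1a* promoter, chr5:8566841-8567140, plus strand: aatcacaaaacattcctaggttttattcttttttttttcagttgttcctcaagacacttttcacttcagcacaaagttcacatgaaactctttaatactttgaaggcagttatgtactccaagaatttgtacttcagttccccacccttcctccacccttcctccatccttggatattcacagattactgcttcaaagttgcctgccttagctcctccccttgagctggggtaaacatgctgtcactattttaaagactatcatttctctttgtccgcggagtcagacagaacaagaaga
*Flt1* holds 1 match, the upstream start of *Egfl7* holds 2 that face opposite ways, the middle start of *Egfl7* holds 1, and *Abcb1a* holds none. The letters occur in 23.8% of all 32851 promoters of this length and in 9 of the 35 promoters of members, or 25.7%. A match describes the sequence and says nothing of what binds there.

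In the barrier group *Abcb1a* was the 1 probe called in the LH. With *Abcb1a* included, 11 of 11 barrier probes tested had a positive log2 difference of the LH from the mean of the others, with a median of 0.72 and a range from 0.10 to 0.92, where 48.2% of all probes were positive with a median of -0.02. Without LH2 the median was 0.40 and 10 of the 11 were positive. *Cldn5*, the main claudin of brain endothelium, read 1228, 1356, 998, 1454, 1672, and 2068 on the arrays from Arc1 to DMH2, and 2389 and 2534 in the LH. The 2 LH arrays lay above the other 6, but the adjusted p of limma was 0.0685. *Pltp*, a phospholipid transfer protein made by brain endothelium, read 15056 and 15138 in the Arc, 24406 and 17963 in the VMH, 16068 and 18785 in the DMH, and 39798 and 27865 in the LH. Here the Arc arrays were the lowest and the LH arrays the highest, and the pair of Arc and LH differed (limma, adjusted p = 0.0409) while the LH against the mean of the others gave 0.0536. The difference of that pair was kept without LH2 and lost without any other array (adjusted p up to 0.197), and it was also lost without scaling and with quantile normalization. *Pltp* and *Esam*, given further on, passed the test in a pair only and were picked out after their values were seen.

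The remaining barrier genes included those of transport. *Slc2a1*, the glucose transporter of the barrier, ran from 1049 on Arc1 to 2881 on DMH2, with 2698 and 2175 in the LH, so the LH arrays overlapped with those of the DMH. *Mfsd2a*, the lipid transporter that restrains transcytosis, ran from 1246 on Arc1 to 3464 on LH2. *Slco1a4*, an organic anion carrier, ran from 323 to 1063, and *Abcg2*, a second efflux pump, from 210 to 659, with the lowest and the highest value of *Abcg2* on the 2 LH arrays. *Bsg*, the transporter chaperone basigin, varied little, from 13574 to 20757 with a difference for the LH of 0.10. *Itm2a*, a membrane protein of brain endothelium, was lowest in the VMH, at 1494 and 1484, and both values lay below all other arrays. *Ly6c1*, an endothelial surface antigen, had 2 probes, of which the brighter ran from 4191 to 10720 with both LH arrays highest, and the dimmer from 3202 to 4925 with the LH arrays overlapping the VMH.

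Of the general endothelial probes, 10 of 13 tested were positive for the LH, with a median of 0.67. *Tie1*, an endothelial receptor tyrosine kinase, ran from 448 to 815 outside the LH and read 1007 and 891 in it. *Cdh5*, the VE-cadherin of endothelial junctions, ran from 114 to 213 outside the LH and read 278 and 241 in it. In neither gene did the LH arrays overlap with the others, and the adjusted p of limma was 0.0963 for *Tie1* and 0.118 for *Cdh5*. *Esam*, an adhesion molecule of endothelial junctions, read 1566 and 1543 in the Arc, 1124 and 1230 in the VMH, 1502 and 1592 in the DMH, and 2075 and 2495 in the LH. The VMH arrays were lowest and the LH arrays highest, and this pair differed by -0.95 ± 0.20 on the log2 scale (limma, adjusted p = 0.0407). It was kept without LH1 and lost without any other array (adjusted p up to 0.211), without scaling, and in the fit blocked on the replicate number (adjusted p = 0.053).

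Other endothelial genes had mixed values. *Vwf*, the clotting factor of endothelial granules, ran from 531 to 915 with a difference for the LH of 0.00. *Emcn*, an endothelial sialomucin, ran from 397 to 715, and *Eng*, a coreceptor for transforming growth factor beta, from 127 to 246 with 5 of 8 arrays above background. *Tek*, the receptor of the angiopoietins, read 404 to 562 on 7 arrays but 91.9 on LH1, where it was not well above background. *Kdr* and *Cd34* each had 2 probes that disagreed. *Kdr*, the main growth factor receptor of endothelium, differed by 0.67 for the LH on the brighter probe and by -0.35 on the dimmer, and *Cd34*, a surface antigen of capillaries, by 0.67 and -0.68. None of these values passed the test.

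Over all groups, 26 of the 37 member probes tested had their highest mean in the LH, where 30.2% of all probes did, and 7 had it in the DMH, 4 in the Arc, and 0 in the VMH, where 14.6%, 29.5%, and 25.8% of all probes did. The lowest mean was in the Arc for 17 and in the VMH for 13, where 26.6% and 25.2% of all probes had theirs. On 11 member probes, or 29.7%, both LH arrays lay above the other 6, where 12.1% of all probes did, and on 1, the dimmer probe of *Kdr*, they lay below, where 9.21% did. On 4 probes both Arc arrays lay below the other 6, where 10.9% of all probes did, and these were of *Flt1*, *Pltp*, *Slc2a1*, and *Notch3*, while on 1, of *Dcn*, they lay above, where 8.61% did. On 3 probes the VMH arrays lay below, of *Itm2a*, *Esam*, and *Rgs5*, against 7.32% of all probes, and on 0 they lay above, against 8.09%. The DMH arrays lay above on 1 probe, of *Cnn1*, against 2.19%, and below on 0, against 2.74%.

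The tests gave fewer calls. For the LH, 18 member probes had an unadjusted p under 0.05, where 24.8% of all probes had. In the Arc, 1 member was called lower, *Flt1*, where 4.12% of all probes were, and none higher, where 2.14% were, and 10 members had an unadjusted p under 0.05, where 21.0% of all probes had. In the Arc limma also called 6 of 10 oligodendrocyte probes and 4 of 8 neuron probes lower, with medians of -1.48 and -0.81, and 5 of 6 probes of tanycytes and ependyma higher, with a median of 2.51, and the part of these cells in the Arc values of *Flt1* was not tested. For the VMH and the DMH limma called 0 members, against 2.27% higher and 2.14% lower of all probes in the VMH and 0.166% and 0.249% in the DMH, and 8 and 2 members had an unadjusted p under 0.05, where 17.9% and 7.11% of all probes had. When an array was left out, other members passed the test for the LH. Higher in the LH were *Ptgds* without Arc1, *Acta2* and *Pdgfrb* without DMH1, *Abcc9* and the brighter probe of *Cd34* without LH1, and *Pltp* without LH2. Lower in the LH were the dimmer probe of *Cd34* without LH1, and *Tek* and the brighter probe of *Plvap* without LH2, where the remaining LH array was not well above background for any of them.

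Between pairs of nuclei 6 members were called in at least 1 pair, where 13.6% of all probes were. *Abcb1a*, *Egfl7*, *Flt1*, and *Pltp* were lower in the Arc than in the LH, where 6.02% of all probes were called lower and 3.32% higher. *Egfl7* and *Esam* were lower in the VMH than in the LH, where 3.04% of all probes were called lower and 2.24% higher. *Cnn1* was lower in the VMH than in the DMH, where 0.945% of all probes were called lower and 1.1% higher. The other pairs had 0 members called. Of all probes, 3.52% were called lower and 2.4% higher in the Arc than in the VMH, 0.727% lower and 0.533% higher in the Arc than in the DMH, and 0.664% lower and 0.26% higher in the DMH than in the LH. Before the arrays were scaled, the median difference of all probes was -0.26 for the Arc, 0.33 for the DMH, and -0.11 for the LH, and the median of the members for the LH stayed positive without scaling and with quantile normalization, at 0.48 and 0.63.

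**Figure D2:**
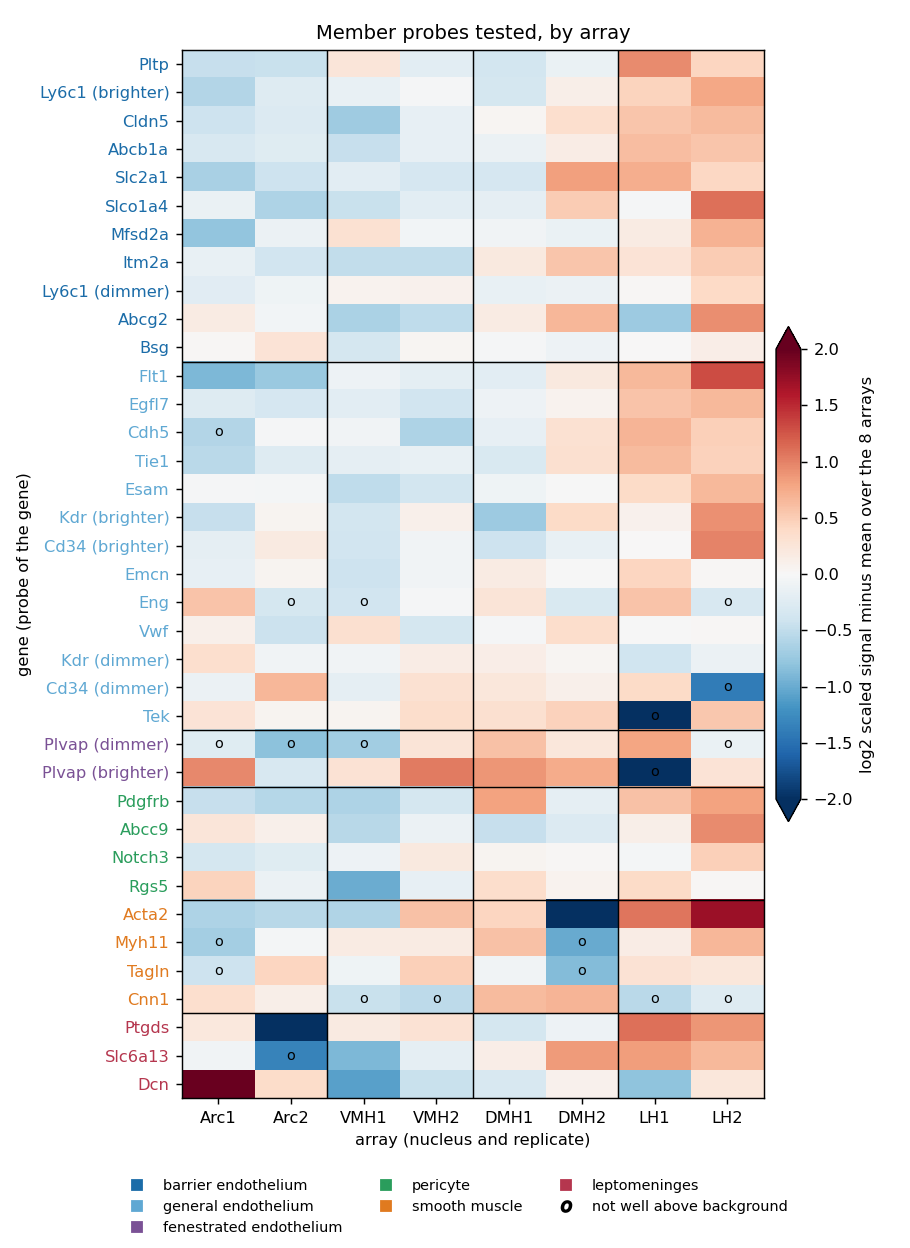
Heat map of the 37 member probes tested (vertical, colored by group) on the 8 arrays (horizontal). Color is the log2 scaled signal minus the mean of the probe over the arrays, held at -2 and 2, and a small circle marks a signal not well above background. Most endothelial rows are red in the LH columns, and *Plvap* and *Tek* on LH1, *Acta2* on DMH2, and *Ptgds* on Arc2 are the deepest blue.

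**Figure D3:**
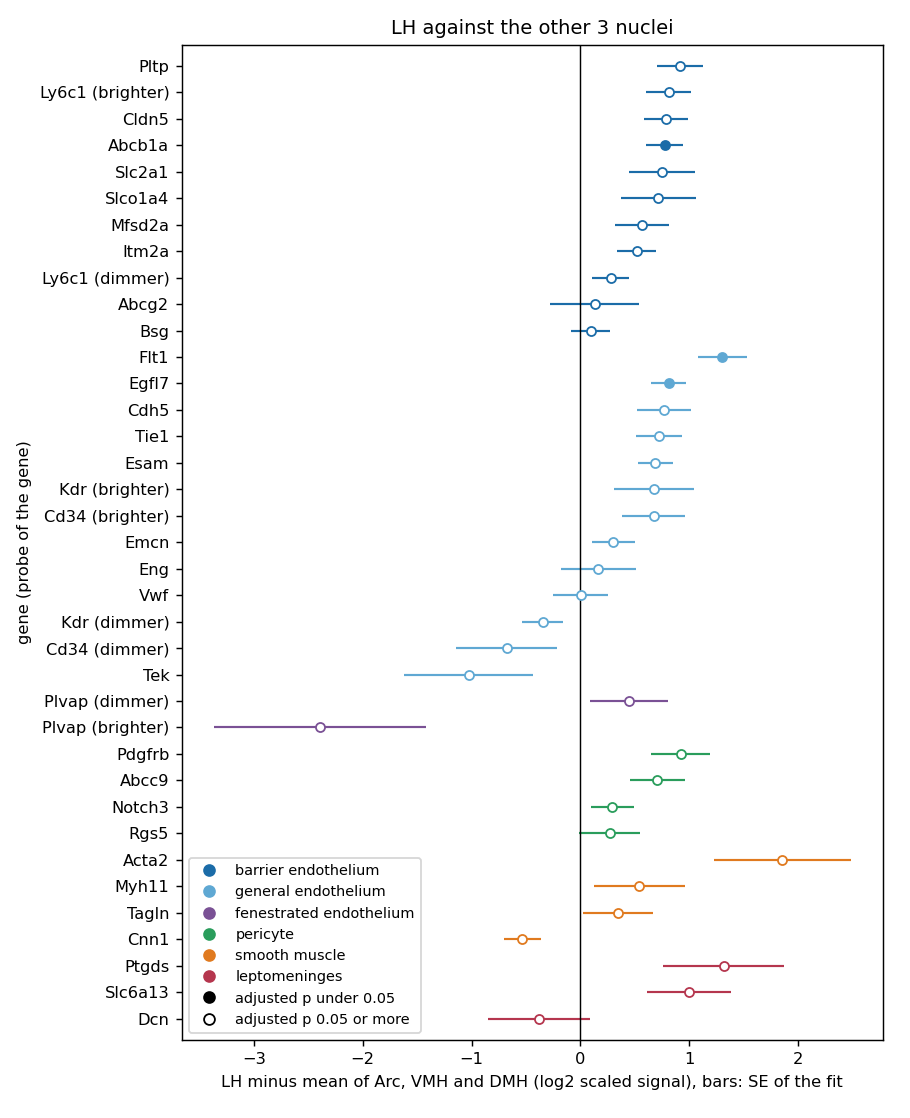
Log2 difference of the LH from the Arc, VMH, and DMH taken as a mean (horizontal) for each tested member probe (vertical), with the SE of the limma fit. Filled points had an adjusted p under 0.05, which were *Flt1*, *Egfl7*, and *Abcb1a*, and all 11 barrier probes lie right of 0.

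Markers of oligodendrocytes were also high in the LH. Of 10 oligodendrocyte probes of 6 genes, 8 were called higher in the LH, where 3.89% of all probes were. The exceptions, 2 probes of *Mbp*, went the other way, with their lowest means in the LH, and were not called against the other nuclei. The summed signal of these 6 genes, taking the brightest probe of each, was 103219 and 106773 in the LH and 11760 to 38776 elsewhere. For 6 astrocyte genes the sum was 54575 to 55440 in the LH and 27342 to 37418 elsewhere, but the probes were mixed, with 4 of 10 highest in the LH and 1 called higher, a probe of *Slc1a2*, and 3 highest in the Arc, of which 2 probes of *Gfap* were called higher there, where 2.14% of all probes were. The Arc was lowest for 6 of the 10, and probes of *Aldh1l1* and *Slc1a2* were called lower there, where 4.12% of all probes were. The barrier genes summed to 71242 and 77257 in the LH and 43466 to 53617 elsewhere, and the general endothelial genes to 31275 and 35032 against 17772 to 23721. In the LH *Pltp* was the largest part of the barrier sum, and *Egfl7* made up most of the general endothelial sum on every array. Of 7 microglial probes 5 were highest in the LH and 1 each in the Arc and the VMH, with a median difference for the LH of 0.46 and no call. Their summed signal went the other way, at 78729 and 76340.0 in the LH and 94686 to 116585 elsewhere, and most of it was 1 probe of *Csf1r*, which read 67652 and 63119 in the LH. In the sums of the oligodendrocyte, astrocyte, barrier, and general endothelial lists the LH arrays lay above all others, and all genes of the oligodendrocyte list were well above background on all arrays. The part of glial cells in the endothelial differences was not tested.

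**Figure D4:**
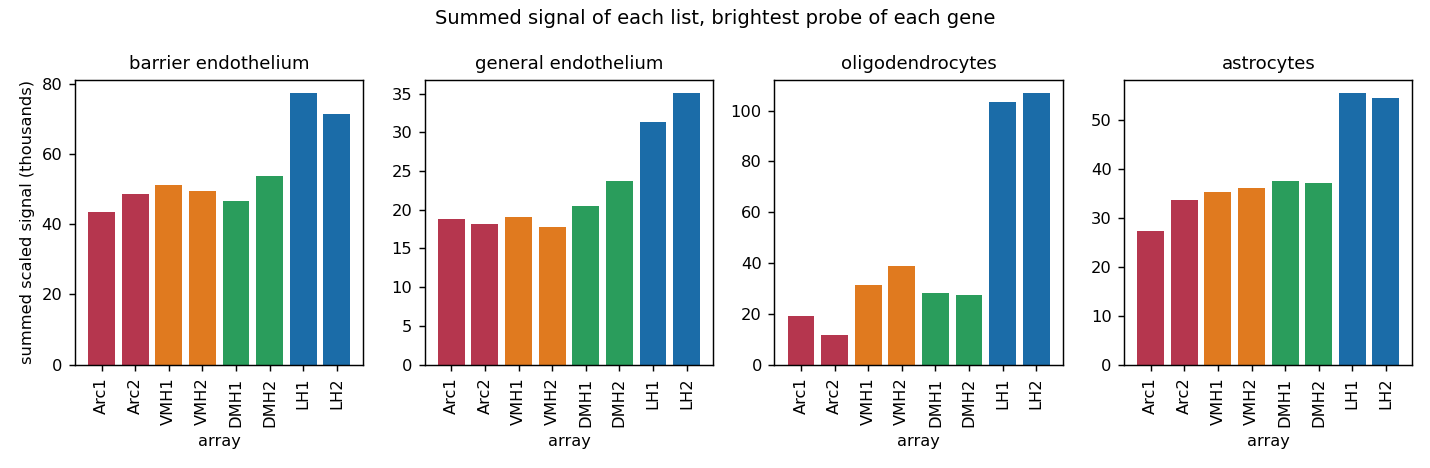
Summed scaled signal (vertical, from 0, in units of 1000) on each array (horizontal) for barrier endothelium, general endothelium, oligodendrocytes, and astrocytes, taking the brightest probe of each gene. The LH bars are the tallest in every panel, at 71242 and 77257 for the barrier genes. *Pltp* is the largest part of these barrier bars, and *Egfl7* makes up most of every general endothelial bar.

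*Plvap*, which forms the diaphragms of fenestrated endothelium, was not called different between the Arc and the other nuclei. Its brighter probe read 724 and 296 in the Arc, 452 and 764 in the VMH, 684 and 622 in the DMH, and 25.3 and 451 in the LH. The 2 Arc arrays span most of the range of the others, and LH1, not well above background, stands alone at the bottom. The Arc exceeded the mean of the others by 0.43 ± 0.97 on the log2 scale, with a 95% interval from -1.88 to 2.73 (limma, adjusted p = 0.848), and the sign turned to -0.22 without Arc1 and to -0.27 without LH1. The dimmer probe read 119 and 80.2 in the Arc, 87.0 and 169 in the VMH, 212 and 166 in the DMH, and 245 and 129 in the LH. It was well above background on 4 arrays, none of them from the Arc, so it gives a bound for the Arc and no level. By that bound the DMH signal lay at least 1.52-fold above the Arc, and the difference did not pass the test (limma, adjusted p = 0.526). On LH1 the brighter probe was not well above background and the dimmer probe had its highest value, and the direction for the Arc is undetermined.

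The pericyte genes were measured on all arrays and none was called. All 4 had a positive difference for the LH, with a median of 0.50 that was 0.79 without LH1. *Pdgfrb*, the receptor through which endothelium recruits pericytes, read 396 and 371 in the Arc, 358 and 430 in the VMH, 952 and 482 in the DMH, and 821 and 951 in the LH. The LH and DMH arrays lay above those of the Arc and the VMH, and the LH differed from the mean of the others by 0.92 ± 0.27 (limma, adjusted p = 0.0957). *Rgs5*, a regulator of G protein signaling that is abundant in pericytes, ran from 1152 on VMH1 to 3127 on Arc1, and both VMH arrays were the lowest. *Abcc9*, a subunit of the potassium channel of pericytes, ran from 214 on VMH1 to 601 on LH2, and *Notch3*, the Notch receptor of mural cells, from 943 on Arc1 to 1687 on LH2.

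The smooth muscle genes varied widely between arrays of the same nucleus. *Acta2*, smooth muscle actin, read 501 and 522 in the Arc, 504 and 1146 in the VMH, 1031 and 188 in the DMH, and 1611 and 2508 in the LH. The 2 DMH arrays bracket those of the Arc and the VMH1 array, and the LH arrays lay above all others, with a difference of 1.86 ± 0.63 on the log2 scale that did not pass the test (limma, adjusted p = 0.131). *Tagln* and *Myh11*, which encode transgelin and smooth muscle myosin, ran from 86.6 to 221 and from 86.1 to 274, and both were not well above background on Arc1 and DMH2.

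*Cnn1*, the actin-binding protein calponin, had a different pattern. It read 172 and 147 in the Arc, 101 and 95.2 in the VMH, 212 and 217 in the DMH, and 93.8 and 114 in the LH. Only the Arc and DMH arrays were well above background, and the DMH arrays lay above all others. *Cnn1* thus entered the tests only through nuclei where it was high, and its calls set these against signals that give no level. It was called in the F-test (limma, adjusted p = 0.0366), and the DMH exceeded the VMH by at least 1.99-fold, a bound set by the lowest signal well above background on the VMH arrays (adjusted p = 0.0451). Both calls were kept without either LH array and lost without any other array. Both were also lost in 7 of 9 other settings, among them no scaling, dim signals raised to that lowest signal, and the replicate number as a block, where the pair had an adjusted p of 0.0759.

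The leptomeningeal genes set the 2 Arc arrays apart. Of the 6, 2 were well above background on both, and *Dcn* was 3.03-fold and *Ptgds* 5.35-fold higher on Arc1. Well above background on Arc1 only were *Lum*, at least 2.75-fold higher there, *Slc6a13*, at least 2.17-fold, and *Ogn*, at least 1.17-fold, bounds set by the lowest signal well above background on Arc2. Of all probes tested, 44.7% were higher on Arc1 and 3.2% were at least 2-fold higher. Other lists also differed between these arrays. All 8 blood cell probes and 8 of 10 oligodendrocyte probes, dim ones included, were higher on Arc1, with median ratios of 1.53 and 1.55. In contrast, 7 of 8 neuron probes and 9 of 11 astrocyte probes were higher on Arc2. *Dcn*, the proteoglycan decorin, read 4162 and 1375 in the Arc, 499 and 779 in the VMH, 846 and 1126 in the DMH, and 610 and 1246 in the LH. Both Arc arrays lay above the other 6, and the difference for the Arc of 1.56 ± 0.47 did not pass the test (limma, adjusted p = 0.112). *Lum*, the related proteoglycan lumican, was well above background on Arc1 at 350 and on DMH1 at 127, and read 98.3 on Arc2 and 30.6 to 98.4 on the other arrays. *Ogn*, another proteoglycan of this family, was well above background on Arc1 alone, at 150, and *Slc22a6*, an organic anion transporter of the meninges, was on no array, with its highest signal of 108 on Arc1.

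*Ptgds*, the prostaglandin D synthase that meningeal cells and oligodendrocytes both make, read 13692 and 2558 in the Arc, 13385 and 14335 in the VMH, 9216 and 11028 in the DMH, and 25191 and 21678 in the LH. The LH arrays were the highest and Arc2 was the lowest by far, and the difference for the LH of 1.32 ± 0.55 passed the test only without Arc1 among the alternatives tried (limma, adjusted p = 0.199 with all arrays). *Slc6a13*, a GABA transporter of the meninges, read 276 and 115 in the Arc, 155 and 255 in the VMH, 318 and 518 in the DMH, and 517 and 454 in the LH. The DMH and LH arrays lay above those of the Arc and the VMH, and no comparison passed the test. On Arc1 the leptomeningeal members thus stood beside the pituitary gene *Cga*, which was at least 11.2-fold above Arc2, and of 6 pituitary genes only *Cga* was well above background there. The part of pituitary tissue, blood cells, or oligodendrocytes in the values of Arc1 was not tested.

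**Figure D5:**
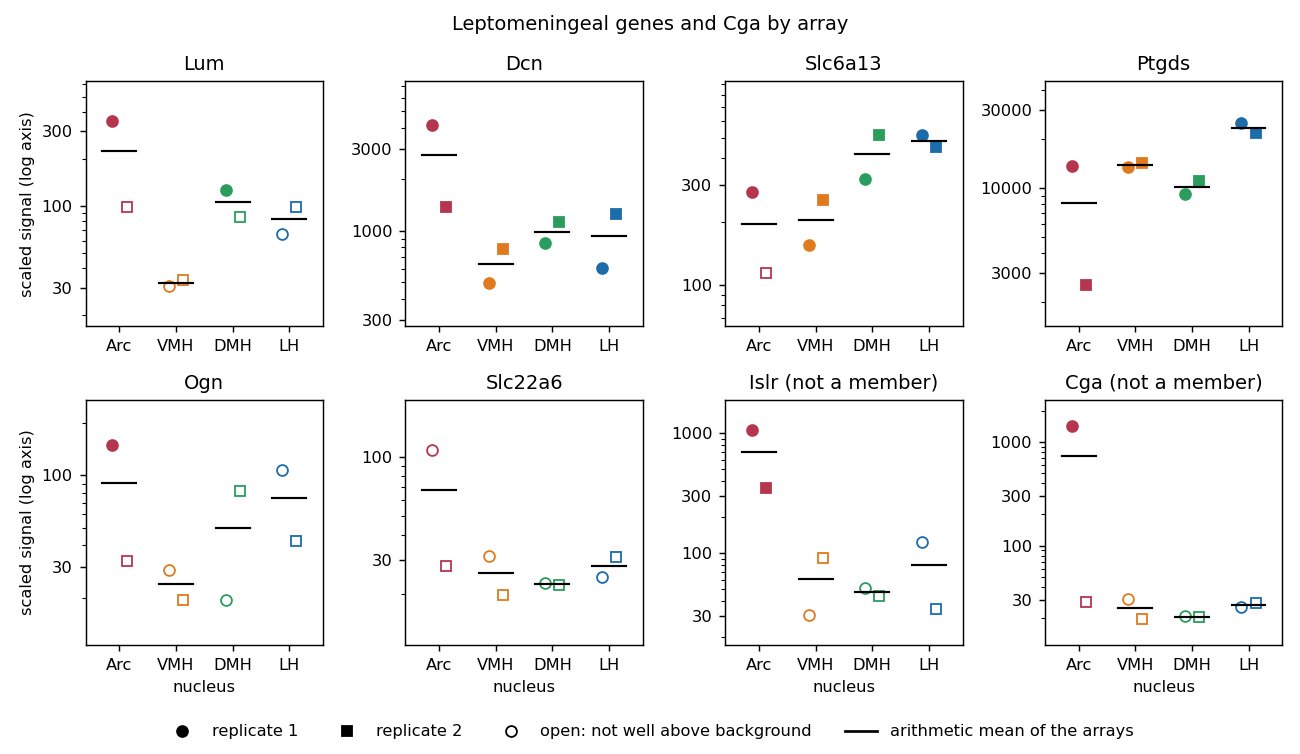
Scaled signal on a log axis against the nucleus for the 6 leptomeningeal members, for *Islr* of the wider leptomeningeal list, and for *Cga*. Circles are replicate 1, squares replicate 2, open marks are not well above background, and lines are arithmetic means. In the panels where both Arc marks are filled Arc1 lies above Arc2, and *Cga* is filled on Arc1 alone, at 1425.

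Other genes of the same pathways were read as lists of ligands, receptors, transcription factors, and further barrier, mural, and leptomeningeal genes, 79 genes with 98 probes, of which 73 probes were tested. In the F-test 6 of the 73 were called, where 8.34% of all probes were. Against the other nuclei, 7 were called higher in the LH, where 3.89% of all probes were, and none lower, where 2.45% were, and 54 of 73 were positive, where 48.2% of all probes were. In the Arc 2 ligand probes, of *Angpt1* and *Angpt2*, and 1 leptomeningeal probe, of *Islr*, were called higher, where 2.14% of all probes were. Lower in the Arc were 2 probes of the barrier gene *Slco1c1*, where 4.12% of all probes were. The call of *Angpt2* (limma, adjusted p = 0.0462) was kept in 3 of 9 other settings. Among the ligands, *Angpt1*, the activating ligand of *Tek*, read 1360 and 1317 in the Arc, 415 and 341 in the VMH, 607 and 832 in the DMH, and 937 and 733 in the LH. The Arc was highest and the VMH lowest with no overlap, and both differed from the others, by 1.15 ± 0.20 and -1.30 ± 0.20 (limma, adjusted p of 0.0226 and 0.0175). Both calls were lost without scaling and without any of the Arc and VMH arrays, and that of the Arc also without DMH1. *Pgf*, a ligand of *Flt1*, read 389 and 417 in the VMH and 760 to 885 on the other arrays, and the VMH differed by -1.02 ± 0.15 (limma, adjusted p = 0.0156), a call kept only without an LH array among the 8 left out and lost without scaling.

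The same low VMH values appeared in *Nrp1*, a coreceptor for growth factors and semaphorins, which read 111 and 96.7 there, the former not well above background, and 232 to 538 elsewhere, with a difference of -1.81 ± 0.29 (limma, adjusted p = 0.02) that was lost without any of the VMH and DMH arrays. Among the further barrier genes *Slco1c1*, the thyroxine carrier of brain endothelium and astrocytes, read 262 and 276 in the Arc, 394 and 456 in the VMH, 384 and 367 in the DMH, and 919 and 693 in the LH on its brighter probe. The LH lay above and the Arc below all others, with differences of 1.19 ± 0.18 and -0.90 ± 0.18 (limma, adjusted p of 0.0137 and 0.0319), and the dimmer probe was called higher in the LH as well. The call of the brighter probe in the LH was kept whichever array was left out and lost without scaling, and that in the Arc was kept only without an LH array. Among 10 other settings the Arc call was kept in 6, and it was lost without scaling and in the fit blocked on the replicate number. Of 6 further mural probes tested, 3 were called higher in the LH, where 3.89% of all probes were. *Mcam*, an adhesion molecule of mural cells, was called higher in the LH on its dimmer probe, at 441 and 460 against 161 to 229 elsewhere (limma, adjusted p = 0.0156, lost without Arc1 and without scaling), but its brighter probe gave -0.19 (adjusted p = 0.578). The other probes called were of *Higd1b* and *Vtn* (limma, adjusted p of 0.0405 and 0.0456). Both calls were lost without scaling and whichever array was left out. Among 10 further leptomeningeal genes 5 had both Arc arrays well above background, and these were 1.43-fold to 3.02-fold higher on Arc1. *Islr*, 1 of them, was well above background on Arc1 and Arc2 only, at 1059 and 351, and has no level in the other nuclei.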

How the data were processed

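The authors amplified the RNA of each microdissected nucleus as a whole transcriptome, labeled it, hybridized it to arrays on the same slide, and extracted spot signals with Agilent Feature Extraction. The labels give version 11.5.1.1 and the file headers 10.7.3.1, the dye is Cy3 in the labels and Cy5 in the labeling protocol, and only red signals are in the files. The deposited values are processed intensities on a linear scale, corrected for background and spatial trend with a minimum for low values, and not scaled between arrays. The authors also deposited these intensities as 1 table, averaged by probe and rounded.

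Here outlier spots were left out, the spots of each probe were averaged, and signals were divided by the 75th percentile of their array (815 on Arc1 to 1239 on VMH2), rescaled to keep the range of the signals. Names came from RefSeq accessions, of which 26762 of 28390 (94.3%) matched GRCm38.p6. The log2 values of 28894 probes, those that some nucleus had well above background on each of its 2 arrays, were fitted with limma 3.58.1 in R 4.3.3, with a mean for each nucleus, 4 residual and 3.02 prior degrees of freedom, and Benjamini-Hochberg adjustment over all tested probes at 0.05. Moderated F-tests, 4 contrasts of a nucleus with the mean of the others, and 6 pairs were taken. The fit was tested on simulated data. Only 2 arrays per nucleus limit the precision. Nothing was left out of the samples.

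Genes named with full statistics are *Plvap* and each member with an adjusted p under 0.05 in the F-test or in a comparison of a nucleus with the others, and up to 3 per pathway list by smallest p. Tests of *Pltp* and *Esam* in pairs, and other values singled out, fall outside this rule. The members and lists were chosen with earlier results of these data known. The alternatives were no scaling, quantile normalization, normexp with an offset of 50, the deposited table, 2 other filters on dim probes, outlier spots kept, dim signals raised, other moderation, a plain one-way analysis per probe, the replicate number as a block, and leaving out each array in turn.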

Additional observations from a re-analysis of the deposited data

How the results depend on the processing

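Counts of members called depended on the settings, and the causes were not tested. In the F-test 2 members were called, against 1 without scaling, 1 with quantile normalization, 4 with normexp, 0 without the filter on dim probes, 1 with dim signals raised, 5 with trended and robust moderation, and 0 in a plain analysis of variance per probe, and from 0 to 3 with an array left out. The 3 members called in the LH became 1 without scaling, 6 with normexp, 1 without the filter, and 7 each with probes above background on all arrays and with trended and robust moderation, and ranged from 0 to 4 with an array left out. The Arc count of 1 fell to 0 without the filter, and the VMH and DMH counts of 0 held in the settings that kept all arrays. With an array left out, the Arc call of *Flt1* could be lost or pass to another member, *Ptgds* without Arc1 and *Lum* without Arc2. In the VMH *Lum* passed without Arc2 and *Abcg2* without LH1. The 6 members called in a pair became 1 without scaling, 1 without the filter, and 10 with probes above background on all arrays, and ranged from 1 to 7. The 6 pathway probes of the F-test became 2 without scaling, 14 with normexp, 3 without the filter, and 14 with trended and robust moderation, and ranged from 1 to 8. *Plvap* in the Arc, 0.43 with all arrays, ranged from -0.27 to 1.12, and was -0.22 without Arc1 and -0.27 without LH1. With only probes above background on all arrays *Plvap* had no value. When an array was left out, the lone array of its nucleus was assumed to vary like the others. Without Arc1 the only member called in the LH was *Ptgds*, and without Arc2, VMH1, or VMH2 none was. Differences for *Flt1*, *Egfl7*, and *Abcb1a* in the LH kept their sign under all 18 alternatives.

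Replicate numbers were not taken to pair the samples. The replicate differences of 2 nuclei correlated by -0.03 to 0.26. With the replicate number as a block, 1 member passed the F-test, and *Abcb1a* in the LH had an adjusted p of 0.0544. Dim genes, with signals near the lowest ones above background (79.3 on LH1 to 132 on LH2), have bounds rather than levels.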

Other observations

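Of 6 blood cell probes tested, 1 was called in the F-test, where 8.34% of all probes were, and none in a nucleus against the others. *Alas2*, the enzyme that starts heme synthesis in erythroid cells, read 650 and 529 in the Arc, 533 and 471 in the VMH, 985 and 1350 in the DMH, and 1188 and 1014 in the LH. The DMH and LH arrays lay above those of the Arc and the VMH, and *Alas2* differed among the nuclei (limma F-test, adjusted p = 0.0416), a call lost without any of the Arc, VMH, and DMH arrays. The globin *Hba-a1* read 26464 and 17588 in the Arc, 13287 and 17663 in the VMH, 25184 and 36356 in the DMH, and 42479 and 24758 in the LH, with no call in the F-test (adjusted p = 0.24). The neutrophil genes *S100a8* and *S100a9* were well above background on no array. These genes were chosen after their values were seen.

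Among the vascular pathway probes, limma called 4 of 73 lower in the VMH than in the mean of the other nuclei, where 2.14% of all probes were, those of the ligands *Angpt1* and *Pgf*, the coreceptor *Nrp1*, and the transcription factor *Foxq1*, and it called 0 higher, where 2.27% were. The call for *Foxq1* was kept only without an LH array among the 8 left out.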
